A study of Homo sapiens with 4 samples.

Results

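The expression of 10 genes of the urea cycle and of ornithine metabolism was described in RNA-seq libraries of cells labelled HepG2, which is an established line from a human liver cancer. The genes were CPS1, NAGS, OTC, ASS1, ASL, ARG1, ARG2, SLC25A15, OAT and ODC1, and all 10 were found among the 57768 gene entries used. They were chosen by name, and the set was chosen because CPS1 was already known to be high in these libraries. The order of the levels is therefore given as a description with no test. WT cells and C/EBPβ enh-/- cells gave 2 libraries each, and the latter had lost an enhancer of CEBPB, the gene of the transcription factor C/EBPβ, from both alleles by CRISPR/Cas9. Both genotypes carry the HepG2 label and were grown in the same serum-containing medium. The sources used here do not state whether the C/EBPβ enh-/- cells are 1 clone, or whether the WT cells had received a vector. Nothing states that the 2 libraries of a genotype came from separate cultures, so p-values measure the spread between these libraries, which may be technical.

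Levels are the FPKM values that the authors deposited, fragments scaled for transcript length and sequencing depth, so genes can be set beside each other within a library. Where 4 values are listed, WT libraries 1 and 2 come first. C/EBPβ enh-/- library 1 was the shallowest, with 0.555 times the depth of WT library 1 as estimated from low values, and its 5 highest genes took 35.1% of its summed FPKM, against 18.8% to 27.4% elsewhere. CPS1, ASS1 and SLC25A15 were lowest in that library and OAT was highest in it, while ASL, ARG2 and ODC1 were lowest in C/EBPβ enh-/- library 2. The part of depth and of the highest genes in the results was not tested beyond the rescalings given.

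The urea cycle turns ammonia into urea, and the complete cycle is a property of hepatocytes. CPS1 makes carbamoyl phosphate in the mitochondrion and needs N-acetylglutamate, the product of NAGS, as its activator. OTC joins carbamoyl phosphate to ornithine, SLC25A15 exchanges ornithine and citrulline across the inner mitochondrial membrane, ASS1 and ASL build arginine in the cytosol, and arginase splits it into urea and ornithine. ARG1 is the arginase of liver cytosol, and ARG2 is a mitochondrial arginase of many other tissues. Outside the cycle, OAT links ornithine to proline and glutamate, and ODC1 makes putrescine, the first polyamine.

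The label was checked against markers of hepatocytes. Of 20 such genes, 19 stayed under an FPKM of 1 throughout, and the highest value among these 19 was 0.370. ALB, the gene of serum albumin, was at 0.0553 in WT library 1 and 0.000783 in C/EBPβ enh-/- library 2, and was listed at 0 in the other 2 libraries. HNF4A, a transcription factor that defines hepatocytes, did not exceed 0.0409. VTN, which encodes the plasma protein vitronectin, was the marker with the highest mean, at 0.864 and 0.800 in WT cells and 1.44 and 1.11 in C/EBPβ enh-/- cells. Its mean reached 1, the filter for testing, only through the C/EBPβ enh-/- libraries (WT mean 0.832), so its fold change is not read. The summed FPKM of the 20 markers was 1.46, 1.67, 2.32 and 1.62. The hepatocyte programme that the label implies was thus near absent from every library, and the cells are called by their label only.

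Small intestinal epithelium is the other tissue known for CPS1, and its markers were also near 0. All 8 intestinal markers stayed under an FPKM of 1 throughout, their sums were 0.0914, 0.0780, 0.242 and 0.125, and the highest was LGALS4, a galectin, at 0.171 in C/EBPβ enh-/- library 1. The 6 blood cell markers were below 1 in every library too, with sums of 0.0924, 0.236, 0.757 and 0.183, and CD14 reached 0.665 in C/EBPβ enh-/- library 1. The mesenchymal list was mixed, with sums of 289, 360.4, 249 and 212. Its highest gene was VIM, the intermediate filament vimentin, at 232 and 308 in WT cells and 190.0 and 138 in C/EBPβ enh-/- cells. VIM alone made up most of each sum. Of the 8 genes, 2 stayed under an FPKM of 1 throughout, COL1A2 (at most 0.00441) and THY1 (at most 0.104). DCN had a mean of 0.768. Of the 8 mesenchymal markers 5 were tested, and 0 passed the adjusted threshold of limma, with 2 lower (16.9% of all tested genes) and 1 higher (3.86% of all) at an unadjusted p under 0.05. Of these 5, 3 were below WT in every pair of libraries (37.5% of all tested genes), 1 overlapped and 1 was above (15.1% of all), COL3A1, a fibrillar collagen, at 33.3 and 31.9 in WT cells and 45.8 and 55.7 in C/EBPβ enh-/- cells, and the median log2 fold change was −0.49. No marker of this list was called, and the part of these values in the results was not tested. In bulk RNA, fewer cells of a type and less RNA per cell cannot be told apart.

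**Figure D1:**
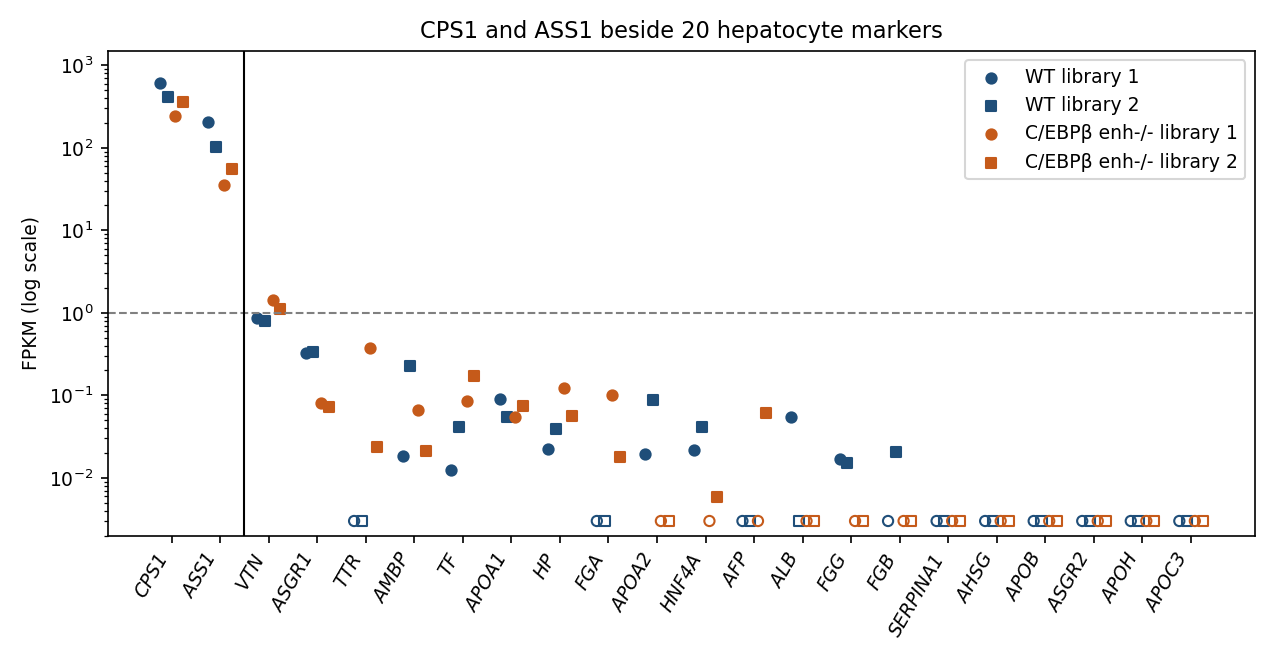
FPKM of CPS1, ASS1 and the 20 hepatocyte markers in each of the 4 libraries, on a log scale, with 1 point per library. Open symbols stand at 0.003 for values under 0.003, listed zeros included, the dashed line marks an FPKM of 1, and CPS1 and ASS1 lie far above every marker.

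CPS1 was the most abundant of the 10 genes in every library. It reached an FPKM of 608 and 417 in WT cells, beside 242 and 360.2 in C/EBPβ enh-/- cells. The genotypes did not overlap, and the gap between the nearest libraries of the 2 genotypes was smaller than the gap within either genotype. By mean FPKM over the 4 libraries, 407, only 158 of the 57768 gene entries were higher, and the number above it in a library was 114, 170, 246 and 150 in the same order. CPS1 (ENSG00000021826.10) spans 201426 bp of the plus strand, chr2:211342406-211543831 on GRCh37, and no other annotated gene entry overlapped that span. It has no named pseudogene among the gene entries.

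The rest of the mitochondrial entry to the cycle was low or at 0. NAGS, whose product activates CPS1, was at 1.44 and 0.702 in WT cells and 1.05 and 0.372 in C/EBPβ enh-/- cells, so the genotypes overlapped. Its mean of 0.891 was below the filter of 1, and it was not tested. OTC, which uses the product of CPS1, was listed at 0 in all 4 libraries. Thus the gene for the first step of the cycle was among the most abundant, while the gene for the next step had no FPKM above 0 in any library.

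**Figure D2:**
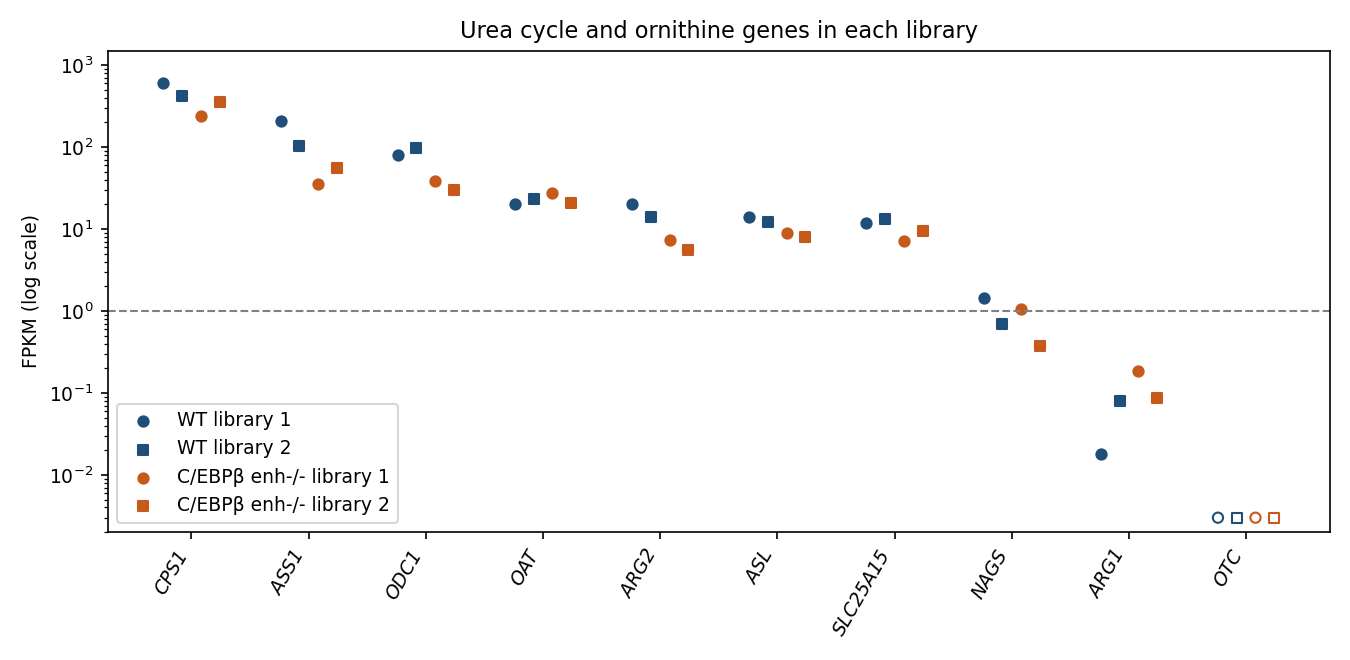
FPKM of the 10 members in each of the 4 libraries, on a log scale, ordered by mean FPKM. Open symbols at the lower edge are listed zeros, the dashed line marks an FPKM of 1, CPS1 lies between 242 and 608, and OTC is listed at 0 in all 4 libraries.

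The levels of the 10 genes ran from CPS1 through ASS1, ODC1, OAT, ARG2, ASL, SLC25A15, NAGS and ARG1 to OTC. Each of CPS1, ODC1, OAT, SLC25A15, NAGS and ARG1 stood above the next gene of that order over the whole range of the 4 libraries. ASS1 and ODC1 overlapped, with ASS1 higher in 3 of 4 libraries. ARG2 was above ASL in both WT libraries and below it in both C/EBPβ enh-/- libraries. It was above SLC25A15 in every library but C/EBPβ enh-/- library 2, and ASL and SLC25A15 held their order in 2 of 4 libraries. Within a library, the FPKM of CPS1 was 2.94 and 4.07 times that of ASS1 in WT cells and 6.80 and 6.49 times in C/EBPβ enh-/- cells. The 2 genotypes did not overlap in this ratio. Against ASL, which builds arginine with ASS1, the ratio was 43.4 and 34.2 in WT cells and 27.1 and 45.0 in C/EBPβ enh-/- cells. Against OAT it was 29.9 and 18.0, and 8.69 and 17.3, with the lowest value in C/EBPβ enh-/- library 1. The ratios to ASS1 and ARG2 were higher in both C/EBPβ enh-/- libraries and the ratio to OAT was lower in both, while those to ASL, SLC25A15 and ODC1 overlapped. Separation of 2 from 2 libraries has an exact two-sided permutation p of 0.333. For the values of single genes it was common, below WT for 37.5% and above for 15.1% of all tested genes. How often the ratio of CPS1 to any tested gene separates was not computed, so these ratios are description only.

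**Figure D3:**
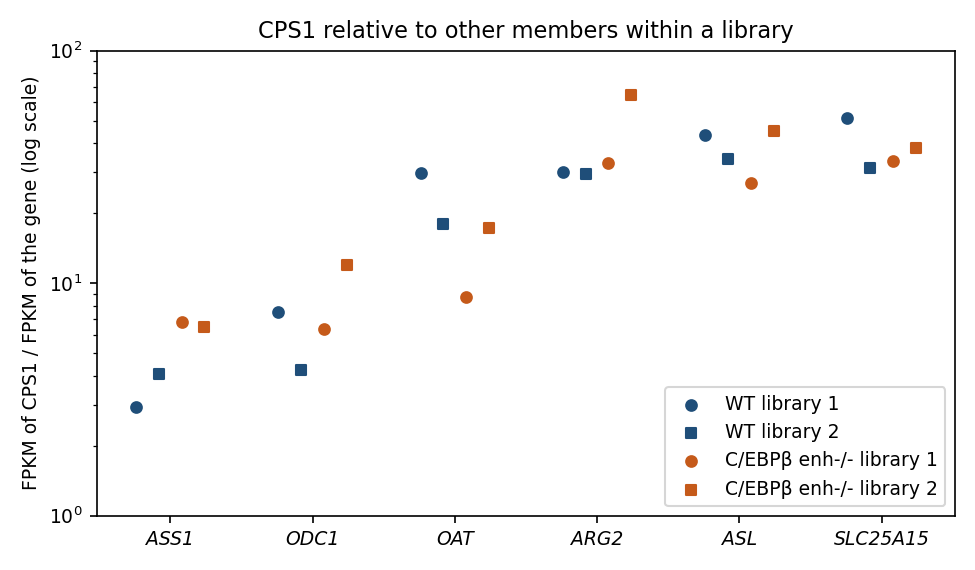
FPKM of CPS1 divided by that of 6 other members within each library, on a log scale, with 1 point per library. The ratio to ASS1 is 2.94 and 4.07 in WT cells and 6.80 and 6.49 in C/EBPβ enh-/- cells, a description with no test.

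The start regions of these genes are shown because the deleted enhancer belongs to a C/EBP factor and most members had lower values in C/EBPβ enh-/- cells. RefSeq promoter windows of 300 bases, 250 before the start and 50 from it, were taken for all 10 members, which gave 14 windows on GRCh38.p14 since CPS1 has 3 and ASS1 and ODC1 have 2 each. The C/EBP core TTGCNNAA, searched on both strands, was in 0 of the 14 windows and in 10.5% of all 35116 windows of that length. The letters TGATGNAA of the composite C/EBP and ATF element were in 0 of 14 and in 3.62% of all windows. The E-box CACGTG was in 3 of 14 and in 7.26% of all, and the TATA box TATAAA was in 2 of 14 and in 11.5% of all. These motifs do not overlap each other in the windows shown. A match is a description of the letters and not a site, and the absence of a match concerns these windows only.

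Below, the middle of the 3 CPS1 windows (chr2:210519468-210519767, plus strand), the OTC window (chrX:38352354-38352653, plus strand), the downstream ASS1 window (chr9:130444711-130445010, plus strand) and the downstream ODC1 window (chr2:10447963-10448262, minus strand) are written from 5′ to 3′ on GRCh38.p14. They set the highest member beside the member listed at 0, the second highest and the one that passed the genotype test. For CPS1, ASS1 and ODC1 the window shown is the only one with an E-box, and which start these cells use cannot be read from FPKM per gene. Capitals mark CACGTG or TATAAA.
CPS1: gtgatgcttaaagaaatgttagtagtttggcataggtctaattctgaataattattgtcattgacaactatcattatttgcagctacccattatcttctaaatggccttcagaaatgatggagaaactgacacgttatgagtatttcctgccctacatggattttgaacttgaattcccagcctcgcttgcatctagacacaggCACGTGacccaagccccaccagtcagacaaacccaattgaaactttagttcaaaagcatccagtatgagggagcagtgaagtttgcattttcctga
OTC: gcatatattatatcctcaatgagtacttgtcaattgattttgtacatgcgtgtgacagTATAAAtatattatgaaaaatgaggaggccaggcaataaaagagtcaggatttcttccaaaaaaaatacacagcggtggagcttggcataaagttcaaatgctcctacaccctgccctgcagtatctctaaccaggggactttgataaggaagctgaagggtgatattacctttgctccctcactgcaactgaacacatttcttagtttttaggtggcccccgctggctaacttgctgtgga
ASS1: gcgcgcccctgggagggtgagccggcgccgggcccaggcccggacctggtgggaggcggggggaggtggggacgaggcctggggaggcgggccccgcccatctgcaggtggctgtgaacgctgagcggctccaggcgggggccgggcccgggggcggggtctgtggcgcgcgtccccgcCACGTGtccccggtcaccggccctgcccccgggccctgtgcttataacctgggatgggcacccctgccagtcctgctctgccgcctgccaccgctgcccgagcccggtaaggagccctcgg
ODC1: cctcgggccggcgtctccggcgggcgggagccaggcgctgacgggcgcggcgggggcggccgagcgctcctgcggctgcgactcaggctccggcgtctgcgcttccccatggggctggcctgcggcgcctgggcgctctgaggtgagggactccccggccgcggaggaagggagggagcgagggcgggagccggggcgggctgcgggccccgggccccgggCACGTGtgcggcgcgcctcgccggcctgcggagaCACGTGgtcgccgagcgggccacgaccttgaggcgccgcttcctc
The E-box began at −46 in the CPS1 window, at −71 in the ASS1 window, and at −29 and 6 in the ODC1 window, counted from the start with no position 0. The TATAAA of the OTC window began at −192, and that of ARG1, not shown, at −29.

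The windows also differed in CpG content. CPS1 had 1, 3 and 3 CpG dinucleotides in its 3 windows, OTC had 3 and ARG1 had 1, all below the lower quartile of 4.0 over all windows. NAGS had 15, near the median of 14.0. The windows of ASS1 (29 and 29), ASL (30), ARG2 (31), OAT (33), ODC1 (43 and 46) and SLC25A15 (45) were all above the upper quartile of 28.0. The 3 genes with few CpG thus held both the highest and the lowest levels of the set, and the genes above the upper quartile were all expressed at an FPKM over 5.

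The comparison of C/EBPβ enh-/- with WT cells asks how gene expression differs when the enhancer is absent. CEBPB itself was at 30.6 and 19.2 (WT) and 12.4 and 11.8 (C/EBPβ enh-/-). The genotypes were separate, and the log2 fold change on the scale of FPKM + 1 was −0.94 with a standard error of 0.27 (adjusted p = 0.125, limma with Benjamini-Hochberg adjustment), so it did not pass the threshold of 0.05. With a library left out, it ranged from −1.27 to −0.62. The enhancer and not the CEBPB gene was deleted.

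Of the 10 members, 7 had a mean FPKM of at least 1 and were tested among 12491 genes, and these 7 exceeded 1 in every library. By limma with Benjamini-Hochberg adjustment 1 of the 7 fell in C/EBPβ enh-/- cells, ODC1, against 1.21% of all tested genes (151), and 0 of the 7 rose, against 0.248% (31). At an unadjusted p under 0.05, 6 of 7 were lower and 0 were higher, against 16.9% and 3.86% of all tested genes. Both C/EBPβ enh-/- libraries lay below both WT libraries for 6 of 7 members, which held for 37.5% of all tested genes, and above for 0 of 7, which held for 15.1%. A log2 fold change of −1 or lower with no overlap was seen for 3 of 7, ASS1, ARG2 and ODC1, and for 5.78% of all tested genes. The median log2 fold change of the 7 was −0.77, beside −0.14 for all tested genes. The 4 tested urea cycle enzymes, CPS1, ASS1, ASL and ARG2, had a median of −1.02 and 0 past the adjusted threshold, with 4 lower at an unadjusted p under 0.05, while the 3 genes of ornithine transport and use, SLC25A15, OAT and ODC1, had a median of −0.55. Where libraries were rescaled the balance of calls over all genes shifted, from 151 lower and 31 higher to 61 and 23 with the same total per library, 58 and 31 with the same total without the highest genes, and 68 and 31 with centring on the median. With a single library left out, from 9 to 22 genes were lower past the threshold, and no member passed it. Lower and higher calls numbered 22 and 3 without WT library 1, 9 and 3 without WT library 2, 15 and 20 without C/EBPβ enh-/- library 1, and 20 and 19 without C/EBPβ enh-/- library 2, so the balance turned in 1 of the 4 fits. Exact permutation of 2 against 2 libraries, two-sided, cannot give a p below 0.333.

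**Figure D4:**
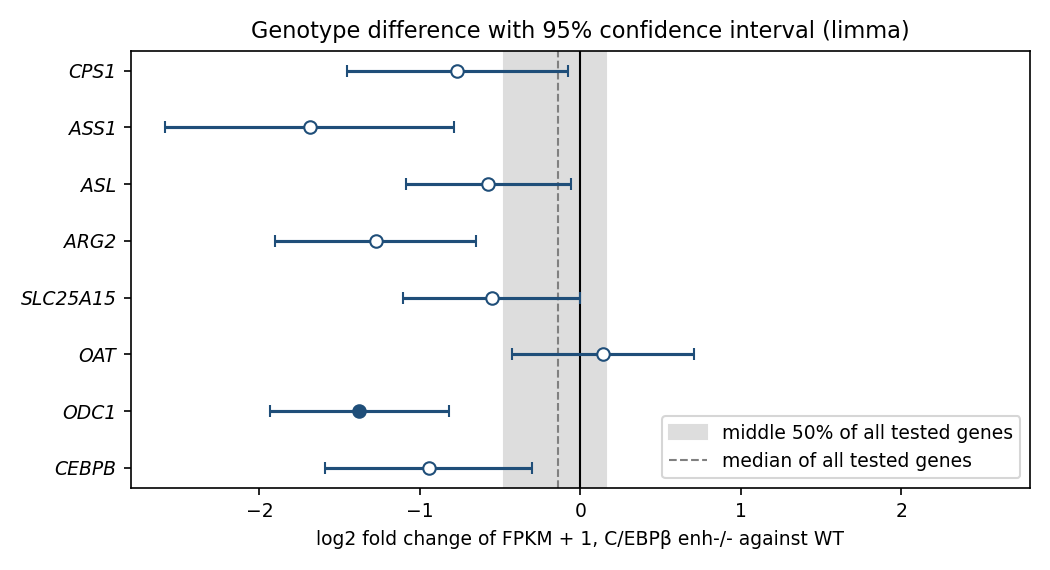
Log2 fold change on the scale of FPKM + 1, C/EBPβ enh-/- against WT, with its 95% confidence interval, for the 7 tested members and CEBPB. The filled point passed the adjusted threshold of 0.05 in limma, and the grey band and dashed line are the middle 50% and the median of all tested genes. Of the 7 members 6 lie below 0, beside 62.6% of all tested genes.

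The difference of CPS1 was not called. Its mean was 512 ± 135 in WT cells and 301 ± 83.4 in C/EBPβ enh-/- cells (± SD, n = 2 each), 58.8% of the WT mean. The log2 fold change was −0.77 (95% confidence interval −1.45 to −0.08, adjusted p = 0.199, limma with Benjamini-Hochberg adjustment), and −0.63 after the median over all genes in the fit was subtracted. The 5 tested genes closest to CPS1, by Euclidean distance over log2(FPKM + 1) in the 4 libraries, were SNHG29 (0.46), S100A6 (0.58), ATP5F1A (0.61), EEF1D (0.62) and RPL5 (0.62). The log2 fold change of SNHG29 was −0.82 and that of EEF1D −0.42, both short of the threshold. These genes were picked on the same 4 values, so levels and fold changes near those of CPS1 follow from the choice.

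ASS1, which joins citrulline to aspartate, had the lowest log2 fold change of the members in the fit of all 4 libraries, but ODC1 was further below 0 without WT library 1 or without C/EBPβ enh-/- library 1. It stood at 207 and 102 in WT cells and 35.6 and 55.5 in C/EBPβ enh-/- cells. The WT libraries stood apart from each other by more than the nearest pair of the 2 genotypes, and all C/EBPβ enh-/- values were lower. The mean was 155 ± 73.7 in WT cells and 45.6 ± 14.0 in C/EBPβ enh-/- cells (± SD, n = 2 each), 29.5% of the WT mean. The log2 fold change of −1.69 had a 95% confidence interval of −2.59 to −0.79 and an adjusted p of 0.0833 in limma with Benjamini-Hochberg adjustment, short of the threshold. ASS1 (ENSG00000130707.13, chr9:133320348-133376661 on GRCh37, plus strand) has 14 named pseudogenes among the gene entries, and the highest of their values was 0.204, for ASS1P2 in C/EBPβ enh-/- library 2. How fragments shared between ASS1 and these copies were counted is not given in the sources used here.

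ASL, which releases arginine and fumarate, was lower by less. It was at 14.0 and 12.2 in WT cells and 8.93 and 8.00 in C/EBPβ enh-/- cells. The genotypes did not overlap, with a mean of 13.1 ± 1.30 in WT cells and 8.47 ± 0.659 in C/EBPβ enh-/- cells (± SD, n = 2 each). The log2 fold change was −0.57 (95% confidence interval −1.09 to −0.06, adjusted p = 0.201, limma with Benjamini-Hochberg adjustment), so it did not pass. With the same total without the highest genes, the log2 fold change was −0.36. ASL (ENSG00000126522.12) lies at chr7:65540787-65559684 on the plus strand of GRCh37, and its pseudogene ASLP1 was between 0.198 and 0.228 in the 4 libraries.

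The 2 arginases differed in level. ARG1, the enzyme of liver cytosol, was at 0.0177 and 0.0791 in WT cells and 0.184 and 0.0869 in C/EBPβ enh-/- cells, all far below 1, and was not tested. Its annotated span (chr6:131791972-131905472 on GRCh37) overlaps MED23, a Mediator subunit on the other strand, which was at 11.0 and 10.9 in WT cells and 21.0 and 17.2 in C/EBPβ enh-/- cells. Whether fragments were assigned by strand is not given in the sources used here, so fragments of ARG1 and MED23 cannot be told apart where they overlap. ARG2, the mitochondrial enzyme, was at 20.3 and 14.2 in WT cells and 7.40 and 5.58 in C/EBPβ enh-/- cells. Its genotypes were separate, and the log2 fold change was −1.27 (95% confidence interval −1.90 to −0.65, adjusted p = 0.0710, limma with Benjamini-Hochberg adjustment), short of the threshold. The mean of ARG2 was 17.2 ± 4.30 in WT cells and 6.49 ± 1.28 in C/EBPβ enh-/- cells (± SD, n = 2 each), and the gene (ENSG00000081181.3) spans chr14:68086637-68118425 on the plus strand.

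Of the 3 genes of ornithine transport and use, 2 were below WT in every pair of libraries (37.5% of all tested genes) and 1 overlapped. Differences between these 3 genes were not tested. SLC25A15, the ornithine carrier, was at 11.9 and 13.3 in WT cells and 7.21 and 9.41 in C/EBPβ enh-/- cells. It was lower in both C/EBPβ enh-/- libraries, with a log2 fold change of −0.55 (95% confidence interval −1.10 to −0.00400, adjusted p = 0.238, limma with Benjamini-Hochberg adjustment), short of the threshold. This fold change was −0.34 with the same total without the highest genes, and from −0.72 to −0.38 with a library left out. OAT, ornithine aminotransferase, was at 20.4 and 23.2 in WT cells and 27.9 and 20.8 in C/EBPβ enh-/- cells. OAT was the 1 tested member whose genotypes overlapped, and its log2 fold change of 0.14 (95% confidence interval −0.43 to 0.71, adjusted p = 0.777, limma with Benjamini-Hochberg adjustment) became −0.06 without C/EBPβ enh-/- library 1. The value was 0.34 without C/EBPβ enh-/- library 2 and 0.36 with the same total without the highest genes.

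ODC1, ornithine decarboxylase and the gene of the first step of polyamine synthesis, was the member that passed the test. It was at 81.0 and 98.7 in WT cells, and at 38.0 and 30.0 in C/EBPβ enh-/- cells. Both WT values were more than double both C/EBPβ enh-/- values, with a mean of 89.9 ± 12.5 in WT cells and 34.0 ± 5.66 in C/EBPβ enh-/- cells (± SD, n = 2 each). The log2 fold change was −1.38 with a standard error of 0.24 (95% confidence interval −1.94 to −0.82, adjusted p = 0.0484, limma with Benjamini-Hochberg adjustment), and −1.24 with that median subtracted. The call was close to the threshold. Of the 12 alternatives with a p, it was kept under 2 and lost under 10, where the adjusted p in limma with Benjamini-Hochberg adjustment ranged up to 0.474. The rule with no p, a log2 fold change of −1 or lower with no overlap, was met. With a single library left out, the log2 fold change stayed between −1.54 and −1.21. ODC1 (ENSG00000115758.8) spans chr2:10580094-10588453 on the minus strand of GRCh37.

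Around the members, 67 further genes of 6 lists, CEBPB among them, were read from the same fit, and 49 were tested. By limma with Benjamini-Hochberg adjustment 0 passed in either direction, while 17 were lower and 1 was higher at an unadjusted p under 0.05, against 16.9% and 3.86% of all tested genes. C/EBPβ enh-/- was below WT in every pair of libraries for 27 of the 49 and above for 3, against 37.5% and 15.1% of all tested genes. Of these 3, 1 reached the filter only through its C/EBPβ enh-/- values. The median log2 fold change of the 49 was −0.37, beside −0.14 for all tested genes.

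**Figure D5:**
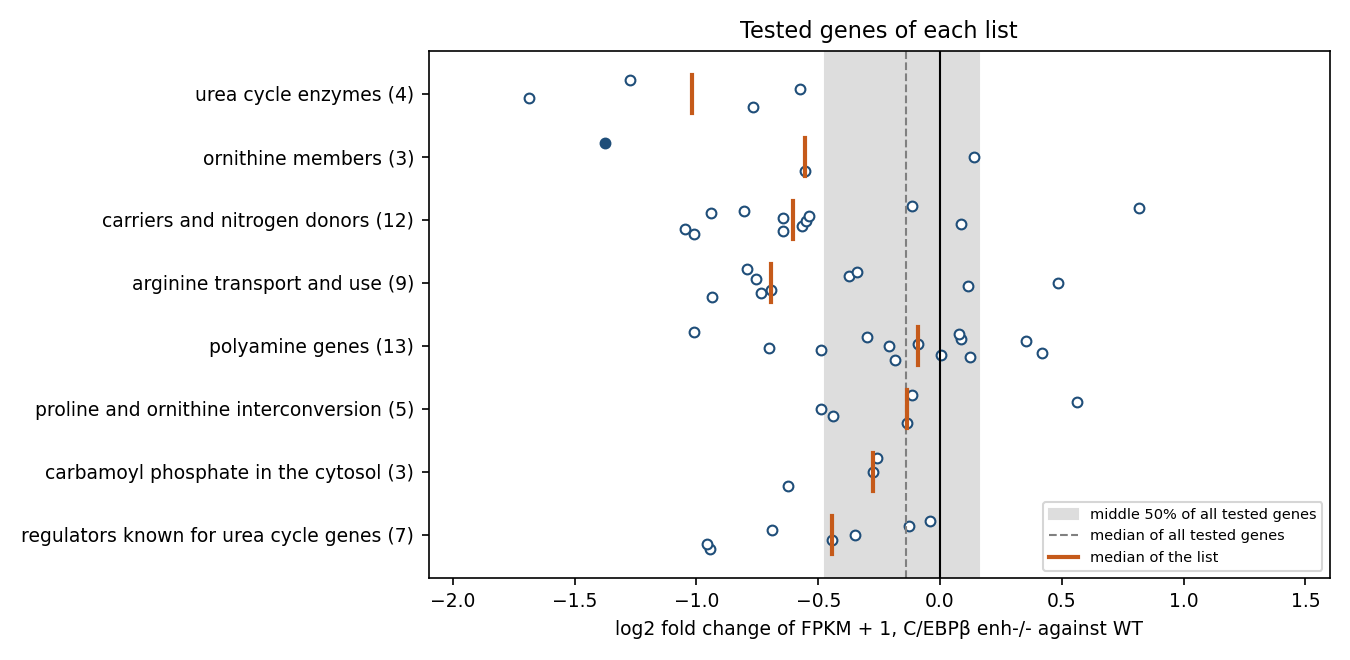
Log2 fold change on the scale of FPKM + 1, C/EBPβ enh-/- against WT, for each tested gene of the 8 pathway lists, with the number tested in brackets. Filled points passed the adjusted threshold in limma (ODC1), orange bars are list medians, and the grey band and dashed line are the middle 50% and the median of all tested genes.

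Carriers and nitrogen donors supply the aspartate, glutamate and bicarbonate that the cycle consumes. Of 16 genes, 12 were tested, 8 were below WT in every pair of libraries (37.5% of all tested genes), 1 was above (15.1% of all) and 3 overlapped, and the median log2 fold change was −0.61. MDH1, cytosolic malate dehydrogenase, was the most abundant, at 148 and 157 in WT cells and 85.6 and 73.0 in C/EBPβ enh-/- cells (log2 fold change −0.94). FH, fumarase, was at 117 and 106 in WT cells and 82.1 and 70.9 in C/EBPβ enh-/- cells. SLC25A12, a mitochondrial aspartate and glutamate carrier, was at 9.96 and 10.3 in WT cells and 3.78 and 5.38 in C/EBPβ enh-/- cells (log2 fold change −1.01), so its genotypes were separate. GLUL, glutamine synthetase, overlapped, at 57.3 and 66.0 in WT cells and 43.6 and 97.5 in C/EBPβ enh-/- cells.

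Arginine transport and use is the list closest to the product of ASL. Of 15 genes, 9 were tested, 7 were below WT in every pair of libraries (37.5% of all tested genes), 1 was above (15.1% of all) and 1 overlapped. The 1 above had a WT mean of 0.894 and reached the filter of 1 only through its C/EBPβ enh-/- values, so its place is not read as a result. At an unadjusted p under 0.05, 4 were lower (16.9% of all), and the median log2 fold change was −0.70. SLC7A1, a transporter of arginine and other cationic amino acids, was at 15.7 and 13.1 in WT cells and 6.80 and 7.20 in C/EBPβ enh-/- cells (log2 fold change −0.94). AGMAT, named for agmatine hydrolysis, was at 6.59 and 6.66, and 3.10 and 3.71 (log2 fold change −0.79). SLC7A6, a transporter that pairs with SLC3A2, was at 19.0 and 30.9, and 11.2 and 19.0, so its nearest libraries were almost equal. DDAH2, of methylarginine breakdown, was at 15.9 and 14.7, and 12.8 and 11.0. SLC3A2, the heavy chain shared by several amino acid transporters, was the most abundant gene of the list and overlapped, at 405 and 262 in WT cells and 410.3 and 303 in C/EBPβ enh-/- cells. The genes that make nitric oxide from arginine, NOS1, NOS2 and NOS3, were all below 0.1 in every library.

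The polyamine list holds genes of the making, use or breakdown of polyamines, and genes that regulate ODC1. Of 14 genes, 13 were tested, 4 were below WT in every pair of libraries (37.5% of all tested genes), 0 were above (15.1% of all) and 9 overlapped, and the median log2 fold change was −0.09. EIF5A, the translation factor modified with spermidine, was at 205 and 258 in WT cells and 100.4 and 129 in C/EBPβ enh-/- cells (log2 fold change −1.01). OAZ1, the antizyme that leads ODC1 protein to degradation, was at 326 and 342, and 314 and 264, with a log2 fold change of −0.21 that was 0.02 with the same total per library without the highest genes. SAT1, which acetylates polyamines, was at 171 and 107, and 296 and 111, so that a single C/EBPβ enh-/- library stood apart. SMOX, spermine oxidase, was at 36.8 and 11.8, and 14.4 and 10.8, and here it was WT library 1 that stood apart. ODC1 was thus the gene of polyamine synthesis with a call, and this list had a median near the median of all tested genes.

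The proline list centres on the glutamate semialdehyde that OAT makes. Of 7 genes, 5 were tested, 1 was below WT in every pair of libraries (37.5% of all tested genes), 1 was above (15.1% of all) and 3 overlapped, and the median log2 fold change was −0.13. PYCR1, a mitochondrial pyrroline-5-carboxylate reductase, was at 189 and 141 in WT cells and 102 and 142 in C/EBPβ enh-/- cells, so its genotypes overlapped. PYCR3, the cytosolic form, was at 5.72 and 7.06, and 10.5 and 9.26, higher in both C/EBPβ enh-/- libraries (log2 fold change 0.56, adjusted p = 0.224, limma with Benjamini-Hochberg adjustment). ALDH18A1, which makes the semialdehyde from glutamate, overlapped at 31.7 and 39.7, and 35.3 and 29.5, with a log2 fold change of −0.13 that was 0.09 and 0.04 with the same total without the highest genes and with centring on the median.

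Cytosolic carbamoyl phosphate, used for pyrimidines, is made by CAD and not by CPS1. CAD was at 23.2 and 26.1 in WT cells and 13.6 and 17.9 in C/EBPβ enh-/- cells (log2 fold change −0.63), so its mean of 20.2 was far below the 407 of CPS1. DHODH, of the same pathway, was at 8.78 and 9.15, and 6.78 and 7.69, and UMPS was at 17.8 and 17.0, and 15.1 and 13.6. All 3 were below WT in every pair of libraries (37.5% of all tested genes), and their median log2 fold change was −0.28, beside −0.14 for all. With the same total without the highest genes, the log2 fold change of CAD was −0.40, that of DHODH −0.07 and that of UMPS −0.04.

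Regulators known for urea cycle genes in liver made up the last list. Of 12 genes, 7 were tested, 4 were below WT in every pair of libraries (37.5% of all tested genes) and 3 overlapped, and the median log2 fold change was −0.45. CEBPB, described above, is counted among the 7 and among the 4. FOXA2 was listed at 0 in all 4 libraries. NR3C1, the glucocorticoid receptor, was the most abundant, at 28.1 and 19.4 in WT cells and 18.2 and 24.9 in C/EBPβ enh-/- cells, with a log2 fold change of −0.13 that was 0.10 and 0.05 with the same total without the highest genes and with centring on the median. CEBPD, a relative of CEBPB, was at 9.55 and 16.5 in WT cells and 4.87 and 7.34 in C/EBPβ enh-/- cells (log2 fold change −0.96, and −1.32 to −0.59 with a library left out), and CEBPG was at 30.4 and 9.65, and 13.8 and 11.2, with WT library 1 apart from the rest. CEBPA, the C/EBP factor most abundant in liver, was at 0.524 and 0.000130 in WT cells and 1.55 and 1.63 in C/EBPβ enh-/- cells, with a mean of 0.926, and was not tested.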

How the data were processed

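The authors deposited 1 FPKM value per gene for each of 4 RNA-seq libraries, and genotypes were read from the sample labels. The labels' extraction text describes an antibody step on sonicated nuclei beside the RNA-seq library, so how the RNA was obtained is not clear from it. The submitters' processing notes name TopHat2 2.0.13, Cufflinks, edgeR and hg19, with no role given. Of the 57768 gene entries used, 55535 matched a symbol and a GRCh37 position in GENCODE. The members and lists were chosen with earlier results of these data known.

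limma 3.58.1 (R 4.3.3) was fitted to log2(FPKM + 1) of all 12491 genes whose mean FPKM reached 1, with lmFit and with eBayes using the trend option. Tests were two-sided, p-values were adjusted by the Benjamini-Hochberg method, and the threshold was 0.05. On this scale the change of low genes is understated. Precision is limited by having 2 libraries per genotype. Python 3.11.15 with pandas 2.3.3, numpy 2.4.6 and matplotlib 3.10.9 made the tables and plots.

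Named genes were the members, CEBPB, from each other pathway list every gene past the threshold, the 3 most abundant tested genes and the 2 largest absolute fold changes, hepatocyte markers with a mean of 1 or more, the highest gene of each other marker list, genes overlapping CPS1 or ARG1, pseudogenes of the members, and the 5 tested genes nearest CPS1. Not every gene that the rule gives is named. ALB, HNF4A, COL3A1, COL1A2, THY1, DCN, NOS1, NOS2, NOS3, FOXA2 and CEBPA are outside this rule and were named after their values were seen. The alternatives were a pseudocount of 0.1, testing every gene, keeping only means of 5 or more, 3 rescalings, no trend, a replicate block, leaving out each library, and a log2 fold change of at least 1 in size with no overlap and no p. Promoter windows came from RefSeq on GRCh38.p14.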

Additional observations from a re-analysis of the deposited data

How the results depend on the processing

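The number of genes lower past the threshold was 151, and became 0 with no filter, 61 with the same total per library, 58 with the same total without the highest genes, 68 with centring on the median, 93 with the replicate number as a block, and from 9 to 22 with a library left out. The number higher was 31, and became 0 with no filter, 20 with a mean FPKM of at least 5, and from 3 to 20 with a library left out. Of the members, 1 was lower past the threshold, ODC1, and 0 were with no filter, each of the 3 rescalings, no mean-variance trend, the replicate block, or any library left out (0 to 0), while 3 had a log2 fold change of −1 or lower with no overlap, a rule met by 5.78% of all tested genes. The cause was not tested. With a library left out, the lone library is assumed to vary like the other genotype.

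The log2 fold changes of CPS1, ASS1, ASL, ARG2, SLC25A15 and ODC1 were below 0 in all 12 alternatives with a p, and no member but ODC1 passed in any of these. In the fit used above, 62.6% of all tested genes were below 0, and the share that stayed below 0 in every alternative was not computed. With a library left out, CPS1 ranged from −1.05 to −0.48, ASS1 from −2.19 to −1.18 and ARG2 from −1.52 to −1.03. Of 27 other tested genes that the rule for named genes gave, 8 changed sign in at least 1 alternative with a p and 0 passed in any. The median of all tested genes moved from −0.14 to 0.06 with the same total without the highest genes and to 0.03 with centring. Same-numbered libraries did not deviate together (Pearson r = 0.00945 across 12491 genes, which are not independent). With 2 libraries per genotype this cannot show whether same-numbered libraries were prepared together. The sources used here state no pairing, so the block stands only here.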

Other observations

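The members lie on 9 chromosomes, whose tested genes did not share a median. On chromosome 2, which carries CPS1 and ODC1, the median log2 fold change of 795 tested genes was −0.44, beside −0.14 for all tested genes, and the 3 other tested genes within 2 Mb of CPS1 had a median of −0.48. On chromosome 9, which carries ASS1, it was 0.01 over 506 genes. It was −0.39 over 419 genes on chromosome 14 (ARG2), −0.50 over 212 genes on chromosome 13 (SLC25A15), −0.34 over 459 genes on chromosome 10 (OAT) and −0.20 over 597 genes on chromosome 7 (ASL). Of the 7 tested members, 6 lay below the median of their own chromosome, SLC25A15 only slightly so, and OAT lay above that of chromosome 10. The part of these chromosome medians in the results was not tested.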
